A study of Homo sapiens with 15 samples.

Results

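The genes described here are 10 inhibitors of receptor tyrosine kinase signalling, namely SPRY1, SPRY2, SPRY4, SPRED1, SPRED2, SPRED3, ERRFI1 (which encodes MIG6), LRIG1, SOCS3 and CBL. They were chosen by symbol, with earlier results of these data known. Each symbol matched 1 of the 61552 gene identifiers in the counts table. The study asked which transcripts depend on the epidermal growth factor receptor (EGFR) in the nucleus and which on its kinase, using polyA RNA sequencing of MDA-MB-468, a human basal-like breast cancer cell line with very high EGFR. The 15 libraries form 5 groups of 3. In the first experiment, cells were starved of serum for 12 h and then treated for 12 h with 10 ng/mL EGF alone (the EGF group), with EGF and 10 µM cSNX1.3, a peptide directed at the contact between EGFR and its trafficking partner Sorting Nexin 1 (the cSNX group), or with EGF and 15 µM erlotinib, an EGFR kinase inhibitor (the ERL group). In the second experiment, both groups carried an inducible lentiviral shRNA against endogenous EGFR and expressed a transfected EGFR.GFP fusion. The fusion was wildtype in shEGFR-WT and had basic residues of its nuclear localization sequence (NLS) changed to aspartic acid in shEGFR-NLS. The dose and time of EGF in the second experiment, and whether each line was 1 clone, are not given in the sources used here.

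These genes act at several levels of one circuit. EGF binding activates the EGFR kinase, which signals through RAS, RAF and MEK to the kinase ERK, and ERK activity induces genes whose products damp the same pathway. Sprouty proteins (SPRY1, SPRY2, SPRY4) and the related SPRED proteins restrain the step from receptor to RAS and RAF, MIG6 binds the EGFR kinase domain and blocks it, LRIG1 is a transmembrane protein that lowers receptor levels, CBL is the ubiquitin ligase that marks activated EGFR for degradation, and SOCS3 is a STAT3-induced inhibitor of cytokine receptors.

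The promoter sequences of the 5 members with the largest differences under erlotinib are printed here, since these transcripts were all lower with erlotinib. Each run is the 250 bases before the start of the RefSeq transcript on GRCh38, read 5′ to 3′ on the gene's own strand. The windows lie at chr5:142324248-142324497 (minus strand) for SPRY4, chr13:80341127-80341376 (minus) for SPRY2, chr15:38252586-38252835 (plus) for SPRED1, chr2:65432600-65432849 (minus) for SPRED2 and chr1:8026310-8026559 (minus) for ERRFI1. The SPRY4 window lies inside the span that GENCODE gives the gene, whose 5′ end is further upstream. Capitals mark the only match found in these 5 windows to the motifs searched.
SPRY4: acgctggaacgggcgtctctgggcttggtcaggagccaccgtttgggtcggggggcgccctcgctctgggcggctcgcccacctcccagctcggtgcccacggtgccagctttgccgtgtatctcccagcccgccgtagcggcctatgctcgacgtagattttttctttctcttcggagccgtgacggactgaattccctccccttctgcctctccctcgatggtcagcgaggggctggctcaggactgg
SPRY2: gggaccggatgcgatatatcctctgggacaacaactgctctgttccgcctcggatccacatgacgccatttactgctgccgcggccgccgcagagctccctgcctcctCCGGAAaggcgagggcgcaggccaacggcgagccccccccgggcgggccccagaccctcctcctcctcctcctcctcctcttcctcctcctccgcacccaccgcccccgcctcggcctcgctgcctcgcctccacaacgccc
SPRED1: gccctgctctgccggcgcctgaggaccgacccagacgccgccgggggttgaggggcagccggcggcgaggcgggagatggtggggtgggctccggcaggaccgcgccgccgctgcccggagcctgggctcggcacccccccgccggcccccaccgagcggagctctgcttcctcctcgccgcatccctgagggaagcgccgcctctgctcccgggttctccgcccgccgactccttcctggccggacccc
SPRED2: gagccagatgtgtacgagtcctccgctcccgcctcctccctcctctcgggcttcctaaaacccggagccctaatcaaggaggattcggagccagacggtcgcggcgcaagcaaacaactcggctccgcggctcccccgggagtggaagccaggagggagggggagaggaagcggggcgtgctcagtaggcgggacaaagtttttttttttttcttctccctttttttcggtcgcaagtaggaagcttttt
ERRFI1: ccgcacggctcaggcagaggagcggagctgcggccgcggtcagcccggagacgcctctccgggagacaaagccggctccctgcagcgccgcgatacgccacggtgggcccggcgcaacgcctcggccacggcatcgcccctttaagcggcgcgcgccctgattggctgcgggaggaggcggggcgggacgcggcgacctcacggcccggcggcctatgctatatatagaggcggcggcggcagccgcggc
The G and C content of these windows was 65.6% for SPRY4, 70.4% for SPRY2, 78.4% for SPRED1, 58.8% for SPRED2 and 75.2% for ERRFI1, against a median of 58% over all 35116 promoter windows, which SPRED2 was close to. Motifs for 4 factor families were searched on both strands. The ETS letters CCGGAA occurred in 14.5% of all windows, the AP-1 letters TGANTCA in 6.57%, the STAT letters TTCNNNGAA in 6.57% and the cyclic AMP response letters TGACGTCA in 1.65%. The match in SPRY2 was to the ETS letters, with its first base 142 bases before the start. A match is a description of letters and was not tested as a binding site.

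The libraries held between 22915676 and 35900649 counts, with a median of 27846664. EGFR, the gene knocked down and re-expressed in the second experiment, was counted in all 15 libraries, and these counts cannot separate the fusion's coding sequence from remaining endogenous transcript. Its level on the scale of CPM (counts scaled to a common library size) was 4317.96 to 4963.25 in EGF, 4564.35 to 4991.84 in ERL, 5759.5 to 6502.19 in cSNX, 1146.54 to 1450.32 in shEGFR-WT and 1687.66 to 1746.01 in shEGFR-NLS. By edgeR's quasi-likelihood test, EGFR was higher in shEGFR-NLS than in shEGFR-WT (log2 fold change 0.37, SE 0.09, Benjamini-Hochberg adjusted p = 0.00367), so these lines differed in EGFR level as well as in the NLS. Of 13 breast epithelial and cell line markers, 12 were present in every library, EPCAM, CDH1, KRT8 and KRT18 among them. The hormone receptor gene ESR1 was also among the 12, at 61 to 292 counts per library, and PGR, another, was at 0 in all 15. The summed level of 12 markers of other cell types was 33.6 to 36.4 CPM in EGF, 50.8 to 59.2 in ERL, 32.8 to 35.8 in cSNX, 43.6 to 54.4 in shEGFR-WT and 52.0 to 58.2 in shEGFR-NLS, with KLRD1 at 0 throughout. Its part in the results below was not tested. Nothing in the labels says that replicates were separate cultures, so p-values measure only the spread between these libraries. In bulk RNA, fewer cells of a kind and less RNA per cell cannot be told apart.

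In the EGF group, ERRFI1 was the most abundant member and SPRED3 the least. Per kilobase of exon, levels were 36.4 CPM per kb for ERRFI1, 6.62 for SPRY2, 6.33 for SPRED2, 5.69 for SOCS3, 5.55 for CBL, 3.10 for LRIG1, 2.83 for SPRED1, 2.58 for SPRY1, 1.15 for SPRY4 and 0.0798 for SPRED3. EGFR itself stood at 297 CPM per kb in the same libraries. SPRED3 rested on 2 to 29 counts per library, and no difference in it was called in any comparison below. All 10 members passed the filter on low counts in each fit.

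**Figure D1:**
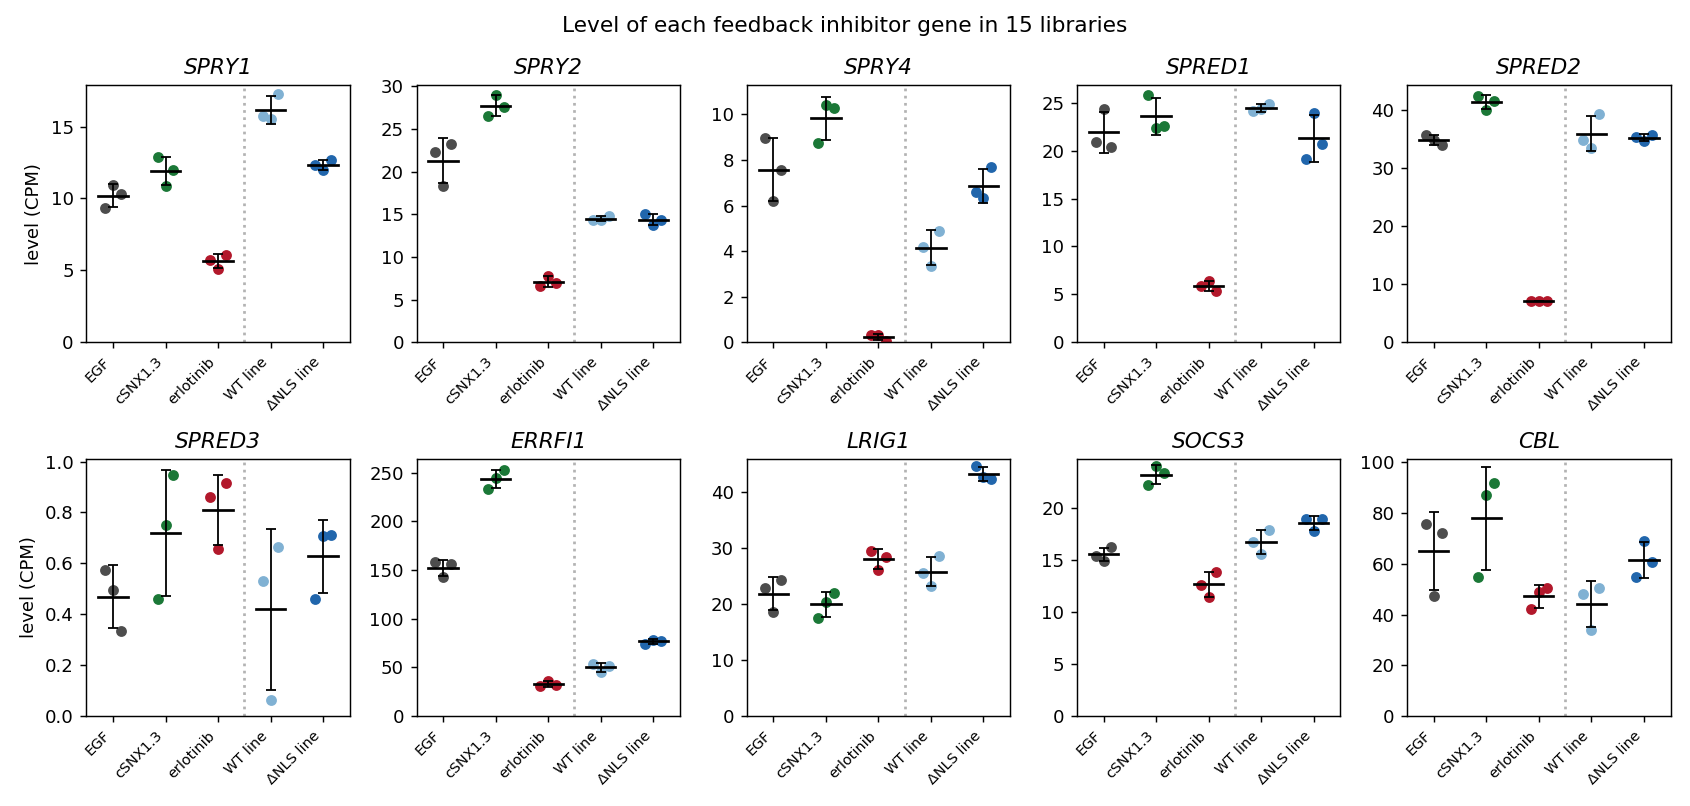
Level in CPM (vertical axes, linear and starting at 0, a separate scale for each gene) of the 10 genes in the 15 libraries. Points are libraries, horizontal bars the means and error bars the SD of 3 libraries, the dotted line separates the drug experiment from the lines, and WT line and ΔNLS line stand for shEGFR-WT and shEGFR-NLS. Erlotinib libraries lie lowest for SPRY1, SPRY2, SPRY4, SPRED1, SPRED2, ERRFI1 and SOCS3, and shEGFR-NLS libraries lie highest for LRIG1.

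The comparison of erlotinib with EGF addresses which of these transcripts depend on the EGFR kinase. Of the 10 members, 7 were lower and 1 was higher with erlotinib at an adjusted p under 0.05 (edgeR's quasi-likelihood test, Benjamini-Hochberg adjustment over 15738 genes). Among all genes tested 44.0% were called, 21.2% lower and 22.8% higher. Such shares are given as a description, since the members were chosen with earlier results of these data known. Of the members called, 5 had an absolute log2 fold change over 1, which 11.3% of all genes reached. The median log2 fold change was -1.21 over the members and 0.01 over all genes. In 9 members, all but CBL, the erlotinib and EGF libraries did not overlap, as in 52.3% of all genes. Of the 12 breast epithelial and cell line markers that were tested, 8 were lower with erlotinib and 1 higher (median -0.93 on the log2 scale). KRT8, an epithelial keratin, averaged 6026 ± 931 CPM (SD, n = 3) with EGF alone and 2598 ± 142 CPM with erlotinib. In the other comparisons 3 markers were higher and 1 lower with cSNX1.3, and 3 higher and 7 lower in shEGFR-NLS. The part of these shifts in the results was not tested.

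Among the Sproutys, SPRY4 had the largest difference and ranked 7 from the lowest of all 15738 log2 fold changes. SPRY4 stood at 8.95, 6.19 and 7.55 CPM in the EGF libraries and at 0.297, 0.327 and 0.0706 CPM in the erlotinib libraries, the latter from 10, 8 and 2 counts. None of the erlotinib libraries came near the lowest EGF library. SPRY4 was 31.9-fold lower (log2 fold change -5.00, 95% interval -5.61 to -4.38, adjusted p = 3.06e-09). SPRY2, the Sprouty best known as an ERK-induced antagonist of RAS signalling, stood at 22.3, 18.3 and 23.3 CPM with EGF and 6.58, 7.78 and 6.91 CPM with erlotinib. It was 2.99-fold lower (log2 fold change -1.58, SE 0.12, adjusted p = 7.33e-08). SPRY1, a further member of the Sprouty family, was at 9.37, 10.96 and 10.3 CPM with EGF and 5.69, 5.12 and 6.07 CPM with erlotinib, a smaller difference (-0.85, SE 0.13, adjusted p = 6.92e-05).

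The SPRED proteins bind neurofibromin and bring it to RAS at the membrane. SPRED2 stood at 35.7, 34.8 and 34.0 CPM with EGF and at 7.12, 7.16 and 7.02 CPM with erlotinib, the narrowest spread of any member in any group relative to its mean. It was 4.87-fold lower (log2 fold change -2.28, SE 0.10, edgeR adjusted p = 8.26e-11). SPRED1 was at 20.9, 24.4 and 20.4 CPM with EGF and 5.84, 6.38 and 5.33 CPM with erlotinib, which was 3.72-fold lower (-1.90, SE 0.12, adjusted p = 6.56e-09). SPRED3 stood apart from both paralogs in sign, at 0.575, 0.497 and 0.333 CPM with EGF and 0.860, 0.655 and 0.917 CPM with erlotinib. Its log2 fold change of 0.81 (95% interval 0.03 to 1.60) did not pass the test across all genes (adjusted p = 0.0870).

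Of the inhibitors that act on the receptor itself, ERRFI1 was lower, LRIG1 was higher, and CBL did not pass the test. ERRFI1 stood at 158, 143 and 156 CPM with EGF and at 31.0, 36.02 and 31.8 CPM with erlotinib, a 4.601-fold difference (log2 fold change -2.20, SE 0.10, edgeR adjusted p = 1.09e-10). EGFR was not called in the same fit (log2 fold change 0.00, SE 0.11, adjusted p = 0.995). LRIG1 stood at 22.8, 18.5 and 24.2 CPM with EGF and 29.4, 25.9 and 28.3 CPM with erlotinib (0.36, SE 0.12, adjusted p = 0.0236). This call on LRIG1 was lost without EGF replicate 2 (0.24, adjusted p = 0.114), ERL replicate 1 (adjusted p = 0.0690) or ERL replicate 3 (adjusted p = 0.0675). CBL overlapped between the groups, at 75.6, 47.2 and 72.3 CPM with EGF and 42.1, 48.7 and 50.5 CPM with erlotinib. Its log2 fold change was -0.46 (95% interval -0.92 to 0.01, adjusted p = 0.102), and without EGF replicate 2 it was -0.66 (adjusted p = 0.00700). DESeq2 also called it (adjusted p = 0.0351).

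SOCS3, whose own induction runs mainly through STAT3, had the smallest difference among the members called. It stood at 15.4, 14.97 and 16.3 CPM with EGF and at 12.7, 11.5 and 13.9 CPM with erlotinib. Its log2 fold change was -0.28 (SE 0.11, edgeR adjusted p = 0.0434). The call on SOCS3 was lost in 10 of 15 alternatives and fits that left out 1 library, counting a threshold of 0.01 as an alternative. Among these were library totals in place of scaling factors (-0.18, adjusted p = 0.254). The others included fits without EGF replicate 1, EGF replicate 3, ERL replicate 1 or ERL replicate 2 (adjusted p = 0.0949, 0.145, 0.0775 and 0.123).

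The comparison of cSNX1.3 with EGF was meant to address which transcripts depend on nuclear EGFR. The EGF group received no control peptide, so loss of nuclear EGFR cannot be told apart from other effects of a peptide. The paper calls it probable that cSNX1.3 also affects other protein interactions. This comparison shares the EGF libraries with the comparison above. ERRFI1 and SOCS3 were higher with cSNX1.3, and these 2 of 10 members were the only ones called, where 6.07% of all genes were called and 3.38% were called higher. The log2 fold change was above 0 in 9 members and the median was 0.32, against 0.00 over all genes. In 4 members (SPRY2, SPRED2, ERRFI1 and SOCS3) the groups did not overlap, as in 25.7% of all genes.

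ERRFI1 had the larger difference. It rose from 158, 143 and 156 CPM with EGF to 233, 245 and 252 CPM with cSNX1.3, a 1.60-fold difference (log2 fold change 0.68, SE 0.09, edgeR adjusted p = 0.000206). SOCS3 stood at 22.3, 24.1 and 23.4 CPM with cSNX1.3, above all EGF libraries, and was 1.496-fold higher (0.58, SE 0.11, adjusted p = 0.00299). Both calls held in every alternative run and without any single library. EGFR was also at a higher level with cSNX1.3, by a log2 fold change of 0.38 that did not pass the test (SE 0.11, adjusted p = 0.0622).

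The other 8 members were not called with cSNX1.3. SPRY2 came nearest, at 26.6, 29.0 and 27.6 CPM with cSNX1.3, with a log2 fold change of 0.38 (95% interval 0.14 to 0.63, edgeR adjusted p = 0.0622). DESeq2 called SPRY2 (adjusted p = 0.0342), as did edgeR on all 15 libraries in 1 fit (adjusted p = 0.0153). SPRED2, at 42.4, 40.1 and 41.6 CPM, had a log2 fold change of 0.25 (0.07 to 0.43, adjusted p = 0.107). SPRY4, the member with the largest difference under erlotinib, stood at 8.75, 10.4 and 10.3 CPM with cSNX1.3. Its log2 fold change was 0.38, with an interval of -0.01 to 0.77 that leaves room for no difference (adjusted p = 0.269). The intervals were -0.03 to 0.49 for SPRY1, -0.12 to 0.34 for SPRED1, -0.17 to 1.46 for SPRED3, -0.39 to 0.13 for LRIG1 and -0.20 to 0.72 for CBL.

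Set directly against each other, the ERL and cSNX groups differed in 9 of the 10 members, where 56.1% of all genes were called. Of these 8 were lower with erlotinib (27.6% of all genes) and LRIG1 was higher (28.5%). The log2 fold changes were -5.38 for SPRY4, -2.88 for ERRFI1, -2.54 for SPRED2, -2.0 for SPRED1, -1.96 for SPRY2, -1.07 for SPRY1 and -0.87 for SOCS3, with edgeR adjusted p between 3.21e-12 and 5.36e-06. ERRFI1 was 7.37-fold lower with erlotinib than with cSNX1.3. LRIG1 was higher by 0.49 (SE 0.12, adjusted p = 0.00288). CBL was lower by a log2 fold change of -0.72 (SE 0.21, adjusted p = 0.0128), a call lost without ERL replicate 1, cSNX replicate 2 or cSNX replicate 3 (adjusted p = 0.0597, 0.0539 and 0.0524) and with library totals in place of scaling factors (-0.56, adjusted p = 0.0634). SPRED3 was not called (0.17, 95% interval -0.58 to 0.91).

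**Figure D2:**
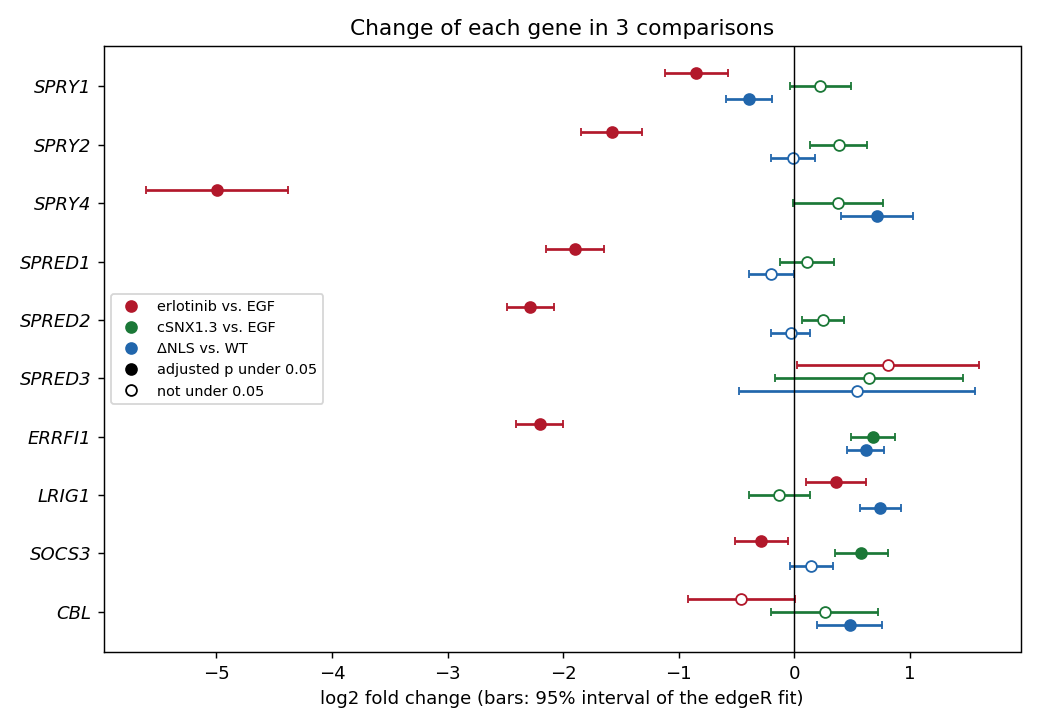
Log2 fold change of each gene (horizontal axis) with erlotinib against EGF in red, cSNX1.3 against EGF in green and shEGFR-NLS against shEGFR-WT (labelled ΔNLS vs. WT) in blue. Bars are 95% intervals of the edgeR fit, and filled points passed an adjusted p of 0.05. SPRY4 lies at -5.00 with erlotinib, and ERRFI1 is the 1 gene filled in all 3 comparisons, at -2.20, 0.68 and 0.62.

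The comparison of shEGFR-NLS with shEGFR-WT was meant to ask the nuclear EGFR question by mutation of the receptor. Both groups share a background of endogenous EGFR knockdown. They are separate lines that also differ in EGFR level, so the mutation cannot be told apart from other differences between them. The paper says that this approach may also reflect changes in transcription that do not depend on EGFR. LRIG1, SPRY4, ERRFI1 and CBL were higher and SPRY1 was lower in shEGFR-NLS. These 5 of 10 members were called where 41.4% of all 15805 genes tested were called, 20.4% higher and 21.0% lower. The median log2 fold change was 0.31 over the members and 0.01 over all genes, and the groups did not overlap in 6 members and in 52.2% of all genes.

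LRIG1 had the largest difference, at 25.6, 23.2 and 28.4 CPM in shEGFR-WT and 44.5, 42.5 and 42.2 CPM in shEGFR-NLS. The shEGFR-NLS libraries were the highest of all 15. The log2 fold change of LRIG1 was 0.74 (SE 0.08, edgeR adjusted p = 2.85e-06). SPRY4 stood at 4.17, 3.35 and 4.90 CPM in shEGFR-WT and 6.57, 6.32 and 7.69 CPM in shEGFR-NLS (0.72, SE 0.15, adjusted p = 0.000944). ERRFI1 stood at 53.3, 44.8 and 51.8 CPM in shEGFR-WT and 74.0, 78.5 and 77.4 CPM in shEGFR-NLS (0.62, SE 0.08, adjusted p = 8.53e-06). In both genes every shEGFR-NLS library lay above every shEGFR-WT library.

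CBL and SPRY1 had smaller differences, in opposite directions. CBL stood at 48.0, 33.8 and 50.5 CPM in shEGFR-WT and 54.7, 69.0 and 60.8 CPM in shEGFR-NLS (log2 fold change 0.48, SE 0.13, edgeR adjusted p = 0.0102). This call on CBL was lost without shEGFR-NLS replicate 2 (0.39, adjusted p = 0.0613) and in a fit of all 15 libraries (adjusted p = 0.0932). SPRY1 fell from 15.7, 15.5 and 17.3 CPM to 12.3, 12.02 and 12.7 CPM (-0.39, SE 0.09, adjusted p = 0.00294). SPRY2 and SPRED2 were not called, at log2 fold changes of -0.01 (95% interval -0.20 to 0.18) and -0.03 (-0.20 to 0.14). SPRED3, at 0.55, was not called either, with a wide interval of -0.47 to 1.56. SPRED1 stood at 24.1, 24.3 and 24.9 CPM in shEGFR-WT and 19.1, 23.9 and 20.7 CPM in shEGFR-NLS. Its log2 fold change of -0.20 was not called (adjusted p = 0.0945) but passed without shEGFR-NLS replicate 2 (-0.29, adjusted p = 0.0248). SOCS3, at 16.8, 15.6 and 17.9 CPM against 18.9, 17.8 and 19.0 CPM, had a log2 fold change of 0.15 (95% interval -0.04 to 0.34, adjusted p = 0.198).

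The NLS effect, here the log2 fold change of shEGFR-NLS against shEGFR-WT, was set against the cSNX1.3 effect in a fit of all 15 libraries. The difference of both log2 fold changes was tested, which cannot separate the mutation from other differences between the lines. This difference was called in 4 of 10 members, where 23.1% of all 16524 genes were called. LRIG1 was relatively higher in the NLS effect, by 0.87 (SE 0.15, edgeR adjusted p = 0.000183). SPRY1 (-0.61, SE 0.15, adjusted p = 0.00391), SOCS3 (-0.43, SE 0.13, adjusted p = 0.0205) and SPRY2 (-0.40, SE 0.14, adjusted p = 0.0448) were relatively lower. The call on SPRY2 was lost without any single library other than EGF replicate 3. That on SOCS3 was lost without EGF replicate 2, cSNX replicate 2, shEGFR-NLS replicate 2 or shEGFR-WT replicate 3, which left 2 members called, LRIG1 and SPRY1. ERRFI1 showed no called difference, -0.06 with a 95% interval of -0.30 to 0.18. The NLS effect differed from the erlotinib effect in 9 members, all relatively higher, and SPRED3 was not called. Among all genes 44.7% were called and 22.6% were called higher. The largest of these differences were 5.73 for SPRY4, 2.83 for ERRFI1 and 2.26 for SPRED2, with edgeR adjusted p of 3.95e-11, 3.38e-13 and 5.36e-12. The call on LRIG1 (0.39, adjusted p = 0.0403) was kept only without EGF replicate 2, ERL replicate 1 or shEGFR-WT replicate 3 among the fits that left out 1 library, and that on CBL (0.94, adjusted p = 0.0180) was lost without ERL replicate 1.

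The order of the 5 groups was not the same for every member. Levels across both experiments are on 1 scale but differ in cell line as well as treatment, which cannot be told apart, so the order is a description. ERRFI1 stood at 244 ± 9.72 CPM in cSNX, 152 ± 8.49 in EGF, 76.6 ± 2.33 in shEGFR-NLS, 49.9 ± 4.56 in shEGFR-WT and 32.9 ± 2.71 in ERL (mean ± SD, n = 3), and no neighbours in that order overlapped. SPRY2 followed a like order, with shEGFR-WT and shEGFR-NLS overlapping at 14.5 ± 0.266 and 14.4 ± 0.611 CPM. SPRY1 was highest in shEGFR-WT, at 16.2 ± 0.976 CPM, and lowest in ERL, at 5.63 ± 0.480 CPM. SPRY4 spanned the widest range, 42.4-fold between the cSNX and ERL means, and CBL the narrowest, 1.77-fold, with only shEGFR-NLS and ERL not overlapping among its neighbours. LRIG1 ran the other way from the Sproutys in the drug groups, highest in ERL and lowest in cSNX at 27.9 ± 1.79 and 19.9 ± 2.23 CPM.

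ERRFI1 and EGFR were both lower in the lines than in the EGF and cSNX groups. The ratio of ERRFI1 to EGFR counts was therefore computed, a measure chosen after the values were seen and given without a test. Per 100 EGFR counts there were 3.22 ± 0.0779 ERRFI1 counts in EGF, 3.97 ± 0.177 in cSNX, 0.699 ± 0.0215 in ERL, 3.74 ± 0.165 in shEGFR-WT and 4.44 ± 0.0556 in shEGFR-NLS (mean ± SD, n = 3). The erlotinib libraries stood far below the EGF and cSNX libraries on this scale too. In the lines, EGFR counts come from the fusion's coding sequence and any remaining endogenous transcript. The ratio in the lines therefore cannot be set against that in the drug groups.

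CBL spread widely within groups, with SDs of 15.5 CPM in EGF and 20.3 CPM in cSNX. In all 5 groups its lowest library was the one with the group's lowest scaling factor, namely EGF replicate 2, cSNX replicate 1, ERL replicate 1, shEGFR-NLS replicate 1 and shEGFR-WT replicate 2. The same held for ERRFI1 in 5 of 5 groups, and for the other members in 1 to 4 of 5. The part of this in the CBL results was not tested.

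**Figure D3:**
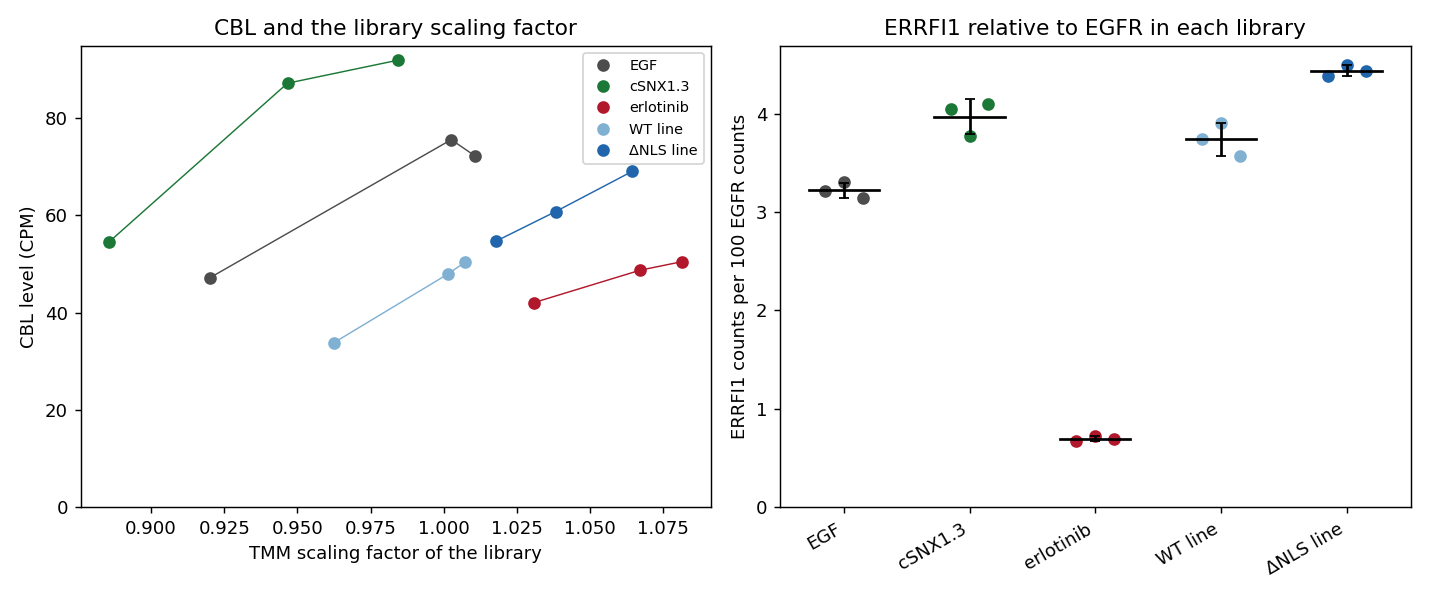
Left, CBL level in CPM (vertical axis, from 0) against the TMM scaling factor of each library (horizontal axis), with lines joining the 3 libraries of a group. Right, ERRFI1 counts per 100 EGFR counts in each library, with the mean and SD of each group. CBL is lowest at the lowest factor in all 5 groups, and erlotinib stands at 0.699 on the right against 3.22 with EGF.

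Counting did not use strand, so reads from overlapping genes on opposite strands cannot be told apart. LRIG1 (chromosome 3, 66378797 to 66501263, GRCh38) shares 2669 bases, or 37.9% of its exons, with SLC25A26 on the other strand. The log2 fold changes of SLC25A26 were 0.11 with erlotinib (edgeR adjusted p = 0.441), 0.09 with cSNX1.3 (adjusted p = 0.737) and -0.41 in shEGFR-NLS against shEGFR-WT (adjusted p = 0.00380), the last opposite to LRIG1. CBL (chromosome 11, 119206298 to 119313926) shares 509 bases, 4.34% of its exons, with MCAM. The log2 fold changes of MCAM were -0.44 with erlotinib (edgeR adjusted p = 0.0178) and 0.36 with cSNX1.3 (adjusted p = 0.144). In shEGFR-NLS against shEGFR-WT MCAM was higher by 1.10 (adjusted p = 5.98e-07). Each had the same sign as that of CBL, and the part of the overlap in this was not tested. ERRFI1 shares 155 bases with a non-coding gene of 0 to 3 counts per library. SPRY4-AS1, which overlaps the span of SPRY4 (chromosome 5, 142310427 to 142326455) but not its exons, had 1 to 35 counts per library and was also lower with erlotinib, by -2.25 (SE 0.52, adjusted p = 0.00233).

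The wider circuit was read from 5 lists of genes. These lists too were chosen with earlier results of these data known, so the shares called in them are a description. Of 16 transcripts that follow ERK activity, 16 passed the test as lower under erlotinib. Their median log2 fold change was -2.75. The 3 with the largest differences were DUSP6, a phosphatase of ERK, from 12.8 ± 0.902 to 0.416 ± 0.173 CPM (log2 fold change -4.89, edgeR adjusted p = 1.09e-10), FOSL1, an AP-1 subunit (-4.41, adjusted p = 6.04e-12), and ETV5, an ETS factor (-3.96, adjusted p = 6.12e-12). Of 24 other feedback regulators, 12 were lower and 1 higher, with a median of -0.36. That is 54.2% called against 44.0% of all genes, whereas 100% of the ERK-following list was called. DUSP4 (-3.11) and DUSP5 (-1.88), dual-specificity phosphatases, led this list after DUSP6. DUSP4, DUSP5, DUSP6 and IER3 stand in both lists.

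With cSNX1.3, 5 of the 16 ERK-following transcripts were higher and 2 lower, 43.8% called against 6.07% of all genes, with a median of 0.25. FOSL1 was higher (log2 fold change 1.13, edgeR adjusted p = 5.02e-06), whereas EGR1 (-1.75, adjusted p = 0.000567) and FOS (-1.20, adjusted p = 0.00255), immediate early transcription factors, were lower. Of the 24 other feedback regulators 7 were higher, 29.2% called against 6.07% of all genes, led by SOCS2, a paralog of SOCS3 (1.13, adjusted p = 0.000116), DUSP6 (0.65, adjusted p = 0.00850) and CBLC, a paralog of CBL (0.59, adjusted p = 0.00409). Without EGF replicate 1, 4 genes of this list were called.

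In shEGFR-NLS against shEGFR-WT the ERK-following list split evenly, 5 higher and 5 lower of 16, 62.5% called against 41.4% of all genes, with a median of -0.11. CCND1, which encodes cyclin D1, was lower (log2 fold change -0.92, edgeR adjusted p = 6.13e-07), while FOSL1 (0.88, adjusted p = 8.61e-05) and IER3 (0.85, adjusted p = 1.70e-07) were higher. Of the 24 other feedback regulators, 7 were higher and 6 lower, 54.2% called, with DUSP9 (1.63, adjusted p = 1.32e-05) and DUSP4 (-0.82, adjusted p = 9.14e-08) at the ends. SPRY4 and ETV5 (0.64) were higher here and lower with erlotinib.

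The ERBB receptors and ligands had a median of -0.04 with erlotinib, 0.22 with cSNX1.3 and -0.48 in shEGFR-NLS, and the adaptors and kinases 0.05, 0.06 and -0.01. AREG and HBEGF, both EGFR ligands, were lower with erlotinib (log2 fold changes -2.14 and -1.92) and higher with cSNX1.3 (1.54 and 0.92), with edgeR adjusted p between 1.25e-07 and 0.000544. With erlotinib, 4 of 10 ERBB genes were higher and 2 lower (60% called against 44.0% of all genes), BTC, a further ligand, being higher by 0.96. With cSNX1.3 AREG and HBEGF were the 2 of 10 called (20% against 6.07%). In shEGFR-NLS 2 were higher and 6 lower (80% called against 41.4%), including HBEGF (1.07), EPGN (-1.33) and BTC (-0.92). Of 17 adaptors and kinases from receptor to ERK, 4 were higher and 6 lower with erlotinib (58.8% called against 44.0%), led by the RAS exchange factors SOS2 (0.97) and SOS1 (0.83) and the scaffold KSR1 (-0.65). With cSNX1.3 edgeR called 0 of these 17, with 2 at an unadjusted p under 0.05, and DESeq2 called 1. In shEGFR-NLS 4 were higher and 6 lower (58.8% called against 41.4%), among them KSR1 (0.59), SOS2 (-0.44) and GAB1 (-0.44), a docking protein.

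Genes of the cytokine and STAT3 route, through which SOCS3 is induced, divided with erlotinib and in shEGFR-NLS. With erlotinib 5 of 12 were higher and 5 lower, 83.3% called against 44.0% of all genes. LIF, a cytokine that signals to STAT3, was at 21.7 ± 2.92 CPM with EGF and 1.34 ± 0.181 CPM with erlotinib (log2 fold change -3.98, edgeR adjusted p = 1.83e-10), and its receptor chain LIFR was higher (0.66, adjusted p = 0.000704). With cSNX1.3, where SOCS3 was higher, 3 of 12 were higher, 25% called against 6.07% of all genes, namely IL6R (1.27, adjusted p = 0.000620), OSMR (0.67, adjusted p = 0.000200) and PIM1 (0.59, adjusted p = 0.000365). In shEGFR-NLS 4 of 13 were higher and 4 lower, 61.5% called against 41.4% of all genes. IL11 (1.14), IL6R (1.02) and TYK2 (0.44) had the largest differences. IL11 and IL6R were at low levels, with means of 0.305 and 0.557 CPM in shEGFR-WT and 0.677 and 1.13 CPM in shEGFR-NLS. TYK2 averaged 213 CPM in shEGFR-WT and 289 CPM in shEGFR-NLS. Without shEGFR-NLS replicate 3, 5 genes of this list were called in place of 8.

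**Figure D4:**
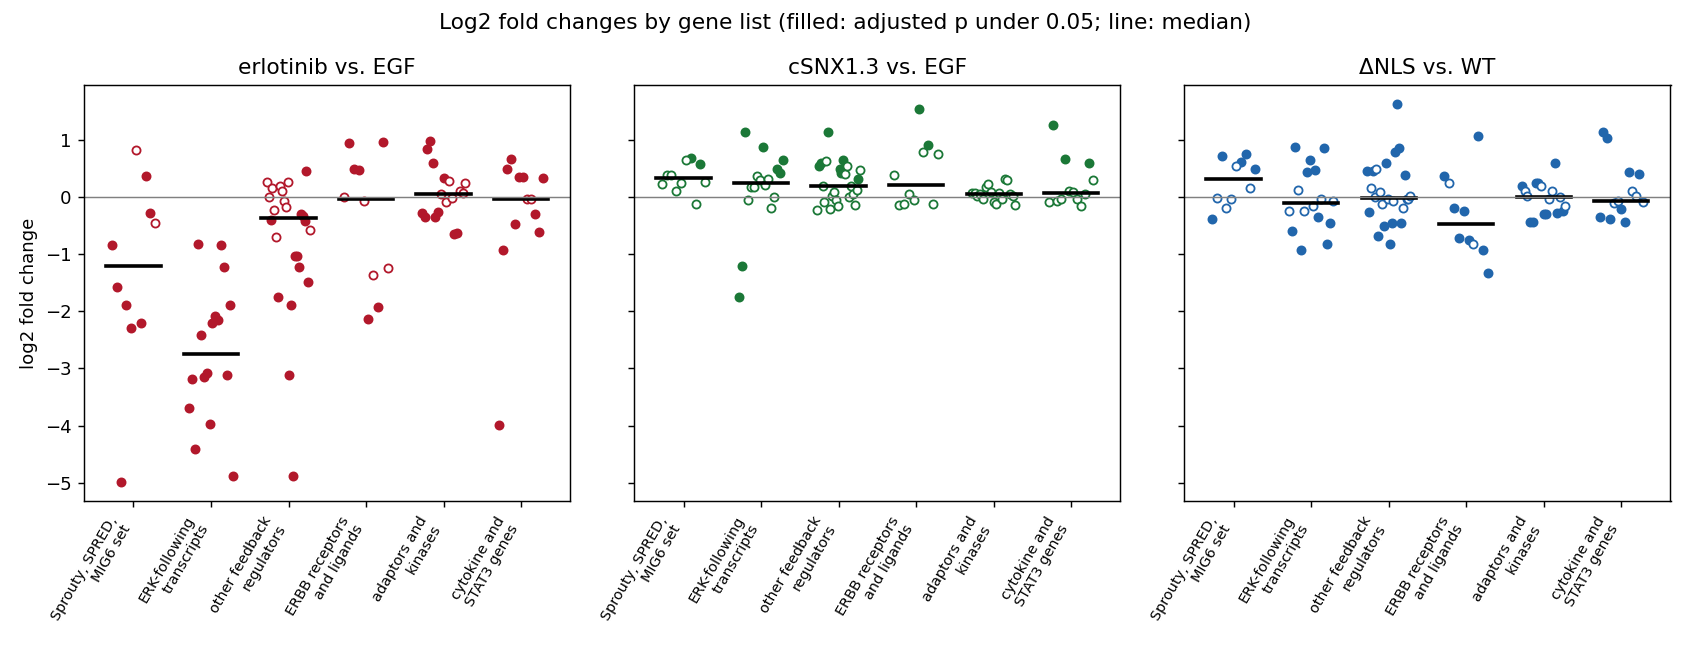
Log2 fold change (vertical axis) of every tested gene of 6 lists in 3 comparisons. Filled points passed an adjusted p of 0.05 and horizontal lines are medians. With erlotinib the ERK-following transcripts all lie below 0, with a median of -2.75, and the 10 feedback inhibitors have a median of -1.21, against 0.32 with cSNX1.3 and 0.31 in shEGFR-NLS (ΔNLS) against shEGFR-WT (WT).

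Likeness to other genes was taken as Pearson's r of log2 CPM over the 15 libraries, among the 13393 genes whose mean reached 1 CPM. The libraries fall into 5 groups and are not independent points, so r describes a shared pattern only. SPRED2 was most like DUSP6 (r = 0.993), ETV5 (0.988) and SPRED1 (0.987), and SPRED1 was most like DUSP6 (0.989). SPRY4 was most like ETV5 (0.984) and EWSR1 (0.982), SPRY2 most like NUAK1 (0.988) and TNFRSF10A (0.986), and ERRFI1 most like STIP1 (0.989) and UBE2G2 (0.987). The nearest gene was ACACB (0.961) for LRIG1, PDCD7 (0.940) for SOCS3 and MIDEAS (0.986) for CBL. Between members, r was 0.971 for SPRY4 and SPRED2, 0.940 for SPRY2 and ERRFI1, and -0.481 for ERRFI1 and LRIG1.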

How the data were processed

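The authors trimmed paired-end reads with TrimGalore 0.6.7 (Phred threshold 20), aligned them to GRCh38 with STAR 2.7.9a and counted them per gene with featureCounts without strand. The annotation release is not given in the sources used here. The deposited values are raw counts per gene for 15 libraries. Of 61552 identifiers, 61399 matched GENCODE 44, which gave symbols, exon lengths and overlaps.

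Counts were tested with edgeR 4.0.16 in R 4.3.3 (filterByExpr by group, TMM scaling, robust quasi-likelihood fit), with Benjamini-Hochberg adjustment over all genes tested and a threshold of 0.05. The 9 drug libraries were fitted together (15738 genes), the 6 line libraries together (15805), and differences between effects in all 15 (16524). Levels are CPM on the TMM scale of all 15 libraries, and log2 CPM for likeness used a prior count of 2. Replicates differed by more than sampling noise (chi-square per degree of freedom 2.60 to 22.3 over 15 pairs). DESeq2 1.42.0, other scalings, filters and fits, and leaving out each library were tried as alternatives. All members were named in every comparison, with the 3 called genes of largest difference in each list, the 3 genes most like 8 of the members, and overlapping genes. The members and lists were chosen with earlier results of these data known. Scripts were tested on simulated data.

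With library totals in place of TMM, the median log2 fold change of all genes moved to 0.11 in erlotinib against EGF, 0.18 in erlotinib against cSNX1.3 and 0.15 in the difference between the NLS and cSNX1.3 effects. The share of called genes that were higher moved from 51.8% to 65.5% with erlotinib, from 55.6% to 39.8% with cSNX1.3, from 50.9% to 66.7% in erlotinib against cSNX1.3, from 49.3% to 61.0% in shEGFR-NLS against shEGFR-WT and from 49.0% to 66.4% in that difference. No called member changed sign.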

Additional observations from a re-analysis of the deposited data

How the results depend on the processing

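Across the alternatives and the fits that left out 1 library, 873 member results kept direction and side of the threshold, 63 lost the call, 9 gained it and 14 changed sign, none of them called. Members called, without 1 library, were 6 to 8 with erlotinib against EGF, 2 to 2 with cSNX1.3 against EGF, 8 to 9 with erlotinib against cSNX1.3, 5 to 5 in shEGFR-NLS against shEGFR-WT, 2 to 4 in the difference between the NLS and cSNX1.3 effects, and 8 to 9 in that between NLS and erlotinib. The 4 members called in the NLS and cSNX1.3 difference became 2 at an adjusted p under 0.01, 2 with library totals and 2 with no filter. With library totals, SPRY2 (0.058) and SPRED2 (0.039) in shEGFR-NLS against shEGFR-WT, and SPRED3 (0.018) and ERRFI1 (0.068) in the NLS and cSNX1.3 difference, changed sign. Without 1 library, values that crossed 0 ran from -0.066 to 0.42 for SPRED3 in erlotinib against cSNX1.3, from -0.040 to 0.020 for SPRY2 and -0.076 to 0.036 for SPRED2 in shEGFR-NLS against shEGFR-WT, from -0.59 to 0.43 for SPRED3 and -0.13 to 0.0063 for ERRFI1 in the NLS and cSNX1.3 difference, and from -0.75 to 0.26 for SPRED3 in that with erlotinib. The cause was not tested. Over all genes, the 956 calls with cSNX1.3 became 470 at an adjusted p under 0.01, 1444 with all 15 libraries in 1 fit, 526 without cSNX replicate 2, 531 without EGF replicate 1 and 592 without EGF replicate 3.

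The replicate numbers share only a number: same-numbered libraries did not deviate together in every pair (correlations -0.41 to 0.44). With a replicate block, 7, 2, 9, 5, 3 and 9 members were called in the 6 comparisons, in the order above. SPRED3 rests on few counts. A filter of 10 counts in every library removes SPRY4 and SPRED3 from the drug comparisons and from both differences between effects. That filter also removes SPRED3 from shEGFR-NLS against shEGFR-WT.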
